A study of Mus musculus with 24 samples.

Results

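The cytosolic ribosomal protein genes of the mouse liver were examined in the Mup knockout series. They were taken as the protein-coding genes whose symbols start with Rpl or Rps and a digit, plus Rplp0, Rplp1, Rplp2 and Rpsa, without the Rps6k kinases and the named pseudogenes. Of 86 such genes, 82 reached the minimum of 0.66 CPM (counts scaled to a common library size) in at least 6 of the 24 libraries, out of 12330 genes that reached it in all. The 82 comprised 49 genes of the large subunit, 32 of the small subunit and Rps19bp1, which matches the naming rule but encodes a protein that binds RPS19 and is not itself a ribosomal protein. Liver RNA was sequenced from 24 mice of the C57/BL6N background aged 12 weeks, with 6 mice in each of the groups mWT, mKO, fWT and fKO (male and female wildtype and homozygous knockout). In the knockouts the whole cluster of major urinary protein (Mup) genes had been deleted with CRISPR/Cas9. All 4 groups received standard chow, and knockout and wildtype mice came from one heterozygous intercross line that descended from a single founder male, so a founder variant linked to the deletion cannot be told apart from it. Each library came from whole liver of one mouse and held 15361901 to 26261394 counts. The Mup genes took 2.66% ± 0.66 (SD, n = 6) of the counts in mWT and 0.415% ± 0.0725 in fWT, and at most 11 reads in any knockout library, which matches the labels. All 8 hepatocyte markers, Alb and Ttr among them, passed the filter.

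The cytosolic ribosome is built from a large subunit, which forms peptide bonds, and a small subunit, which reads the mRNA, and each holds one copy of most of its proteins. Many ribosomal protein mRNAs begin with an unbroken pyrimidine tract at the cap (a terminal oligopyrimidine or TOP motif), through which mTORC1 and the RNA-binding protein LARP1 adjust their translation and stability together with nutrient supply. In the liver, which makes most of the proteins of the plasma, their output is known to follow feeding and growth signals.

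Pyrimidine tracts were more frequent at the annotated starts of these genes than at all starts, but most of the starts lacked one. RefSeq starts on the GRCm38.p6 assembly were found for 62 of the 82 genes, with 73 starts in all. Of these starts, 45.2% lay within 25 bases of a pyrimidine run of at least 8 bases, against 19.3% of all 20123 starts, and 17.8% lay on a C followed by 4 pyrimidines, against 2.23%. The following windows show 15 bases before the start and 15 bases from the start on, with the longest pyrimidine run in capitals. Rpl35, Rpl15, Rps10 and Rps27 are shown as starts on a C inside such a run, Rps27l for its lack of one, and Rps28 for another motif described after it. The windows were picked for these features. Those of Rpl27 and Rpl36a, not shown, had a longest run of 5 bases.
Rpl35 (chr2:39005117-39005146, minus strand): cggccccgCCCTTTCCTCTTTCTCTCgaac
Rpl15 (chr14:18270972-18271001, minus strand): gtgggagaaagCCTTCTTCCTTTCCTCTgg
Rps10 (chr17:27635230-27635259, minus strand): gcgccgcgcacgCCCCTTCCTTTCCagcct
Rps27 (chr3:90213634-90213663, minus strand): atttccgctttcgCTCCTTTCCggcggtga
Rps27l, first start (chr9:66946071-66946100, plus strand): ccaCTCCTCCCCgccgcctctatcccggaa
Rps28 (chr17:33824548-33824577, minus strand): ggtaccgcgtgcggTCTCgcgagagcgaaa
The run of Rpl35 spans 18 bases and that of Rpl15 17 bases, and both cross the start. In Rps27l the run of 9 bases ends before the annotated start, whereas in its paralog Rps27 a run of 9 bases crosses it. The Rps28 window holds the palindrome CTCGCGAG, which occurred in the 300 bases around the start (250 before to 50 after) in 11.0% of the ribosomal protein starts and 1.26% of all starts (both strands read alike). In the same 300 bases, on either strand, the letters CCGGAAG (the core recognised by ETS factors) occurred in 35.6% against 11.9%, AAGATGGCG (recognised by YY1) in 8.22% against 1.93%, TATAAA in 9.59% against 12.2%, CACGTG in 11.0% against 8.04% and GGGCGG in 63.0% against 47.8%. These shares describe letters in the windows, and genes with more than one start were counted once per start.

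All 82 genes passed the minimum in all 24 libraries, so none owed its place to one group. The lowest mean was 5.77 CPM for Rps19bp1, the median 90.3 CPM and the highest 419 CPM for Rpl4. Per kb of annotated exon (the union over transcripts), Rpl4, an early-assembling protein near the exit tunnel of the large subunit, was highest with 209 CPM per kb. Its levels were 433 CPM ± 22.3 (SD, n = 6) in mWT, 415 ± 10.3 in mKO, 422 ± 31.0 in fWT and 406 ± 19.4 in fKO. High levels were also found for Rps3a1 (166 CPM per kb), Rps15 (148 CPM per kb) and Rpl17 (146 CPM per kb), of which the last pair differed by less than the spread between mice. The lowest level per kb was that of Rps19bp1 (5.33 CPM per kb), followed by Rpl27a (9.56 CPM per kb), Rpl22l1 and Rplp2 (both 12.2 CPM per kb) and Rpl18 (12.4 CPM per kb). The last 3 of these differed by less than the spread between mice. The mRNA levels per kb spanned 39.2-fold from Rpl4 to Rps19bp1, which does not encode a ribosomal protein. Without Rps19bp1 they ran from 209 CPM per kb (Rpl4) to 9.56 CPM per kb (Rpl27a).

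**Figure D1:**
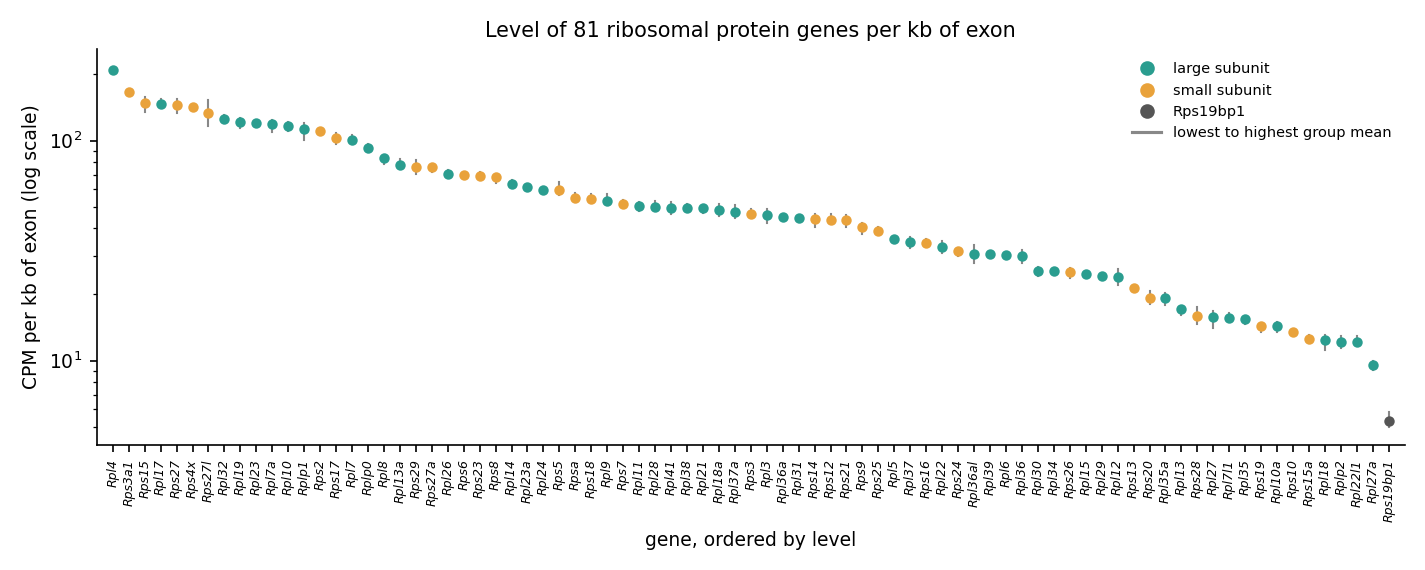
Mean level of 81 of the 82 genes in CPM per kb of exon (vertical axis, log scale), ordered from highest to lowest along the horizontal axis, where points are means over 24 mice and bars reach from the lowest to the highest of the 4 group means. Levels run from 209 CPM per kb for Rpl4 to 5.33 for Rps19bp1, and most bars are short beside the distance between the top and the bottom of the order.

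The order of levels depends on the length used and on how reads from copies were counted. With the principal transcript as length, Rps27 came first with 439 CPM per kb. Ribosomal protein genes have many processed pseudogenes, and 75 of the 82 shared at least one stretch of 100 bases (the read length) with the annotated transcript of another gene, with a median of 42.1% of a gene's stretches. Sharing was highest in Rps27 (98.4%), Rpl10 (91.6%) and Rpl5 (91.1%), and it was 0% in Rps27l. Across the 82 genes, which are not independent replicates, the shared percentage had a Spearman's rho of 0.018 with the level per kb. The 14 genes that shared under 10% had a median of 44.9 CPM per kb, and the 3 that shared 90% or more had a median of 117. How reads with several matches were treated is not given in the sources used here, so the levels of genes with high sharing are uncertain.

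The other 4 gene symbols of the family stayed below the minimum in all 24 libraries, and some of these are paralogs known mainly from other tissues. Rpl3l, the striated muscle counterpart of Rpl3, had 28 reads over all libraries, the retrogene Rps27rt had 27, Rpl39l, a testis counterpart of Rpl39, had 6, and Rpl10l, the autosomal testis copy of the X-linked Rpl10, had 0. A count of 0 allows up to 0.114 to 0.195 CPM, depending on the library (3 counts, counting error only).

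Summed over the 82 genes, ribosomal protein mRNA amounted to 8302 CPM ± 578 (SD, n = 6) in mWT, 8382 ± 127 in mKO, 8654 ± 571 in fWT and 8207 ± 582 in fKO. This corresponded to 0.708% to 0.944% of a library. The lowest mouse was fKO 5 with 7078 CPM, the next lowest mWT 3 with 7527 CPM, and the highest fWT 1 with 9302 CPM. The ranges of all 4 groups overlapped. The knockout minus wildtype difference of the means was 79.6 CPM in males and -447 CPM in females, and both were smaller than the SD of the wildtype mice. The male difference had the opposite sign (-75.4 CPM) without mWT 3 and was 257 CPM without mWT 4. The female difference was -221 CPM without fKO 5 and -607 CPM without fWT 3. With library totals in place of TMM scaling it was -726 CPM, which exceeded the SD of fWT on that scale (381 CPM), while the ranges of fWT (8293 to 9442 CPM) and fKO (7089 to 8765 CPM) still overlapped. The male difference on that scale was 11.7 CPM. The 6 mKO mice lay closer together (8254 to 8600 CPM) than the mice of any other group. The spread of mKO was not compared with a test.

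**Figure D2:**
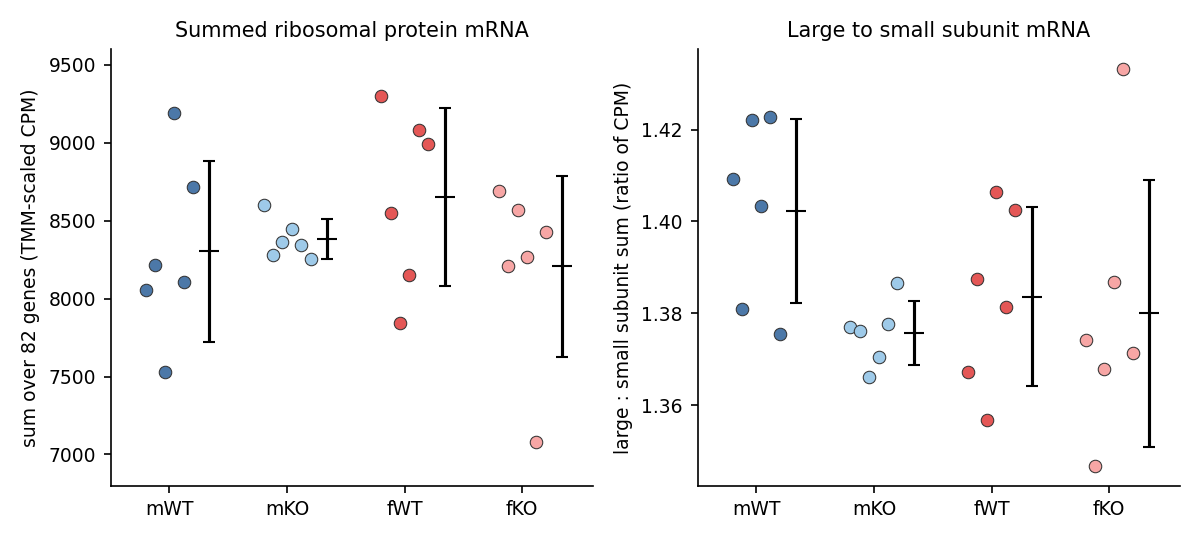
Left, sum of the 82 genes in each mouse in TMM-scaled CPM. Right, ratio of the large to the small subunit sum, where points are mice, horizontal marks are group means, error bars are SD (n = 6) and neither vertical axis starts at 0. The sums overlap between all groups, with fKO 5 lowest at 7078 CPM, and the ratio stays between 1.35 and 1.43.

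The subunits kept their proportion from mouse to mouse. The large subunit genes summed to between 1.35 and 1.43 times the small subunit genes, with a coefficient of variation over the 24 mice of 1.57%, whereas the sum itself varied by 5.96%. A ratio within a library cancels its depth and scaling, and no ratio of other gene sets was computed for comparison. The mRNAs also deviated together. After removing the group means, the median correlation between pairs of the 82 genes across the 24 mice was 0.511, compared with 0.291 among 78 genes of the mitochondrial ribosome and -0.001 among all genes tested. These correlations come from the same libraries and share their depth and scaling, and are given without a test. In fKO 5, 0 of 82 genes were above their fKO mean, while 50.3% of all genes were. In mWT 3 and fWT 3 the counts were 2 and 3 of 82, and in mWT 4 and mWT 6 they were 81 and 79. In the 6 mKO mice they lay between 33 and 46. The median within-group SD of the 82 genes was 0.132 on the log2 scale. It was 0.143 for the mitochondrial ribosome genes and 0.20 for all genes, which were not matched for level.

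**Figure D3:**
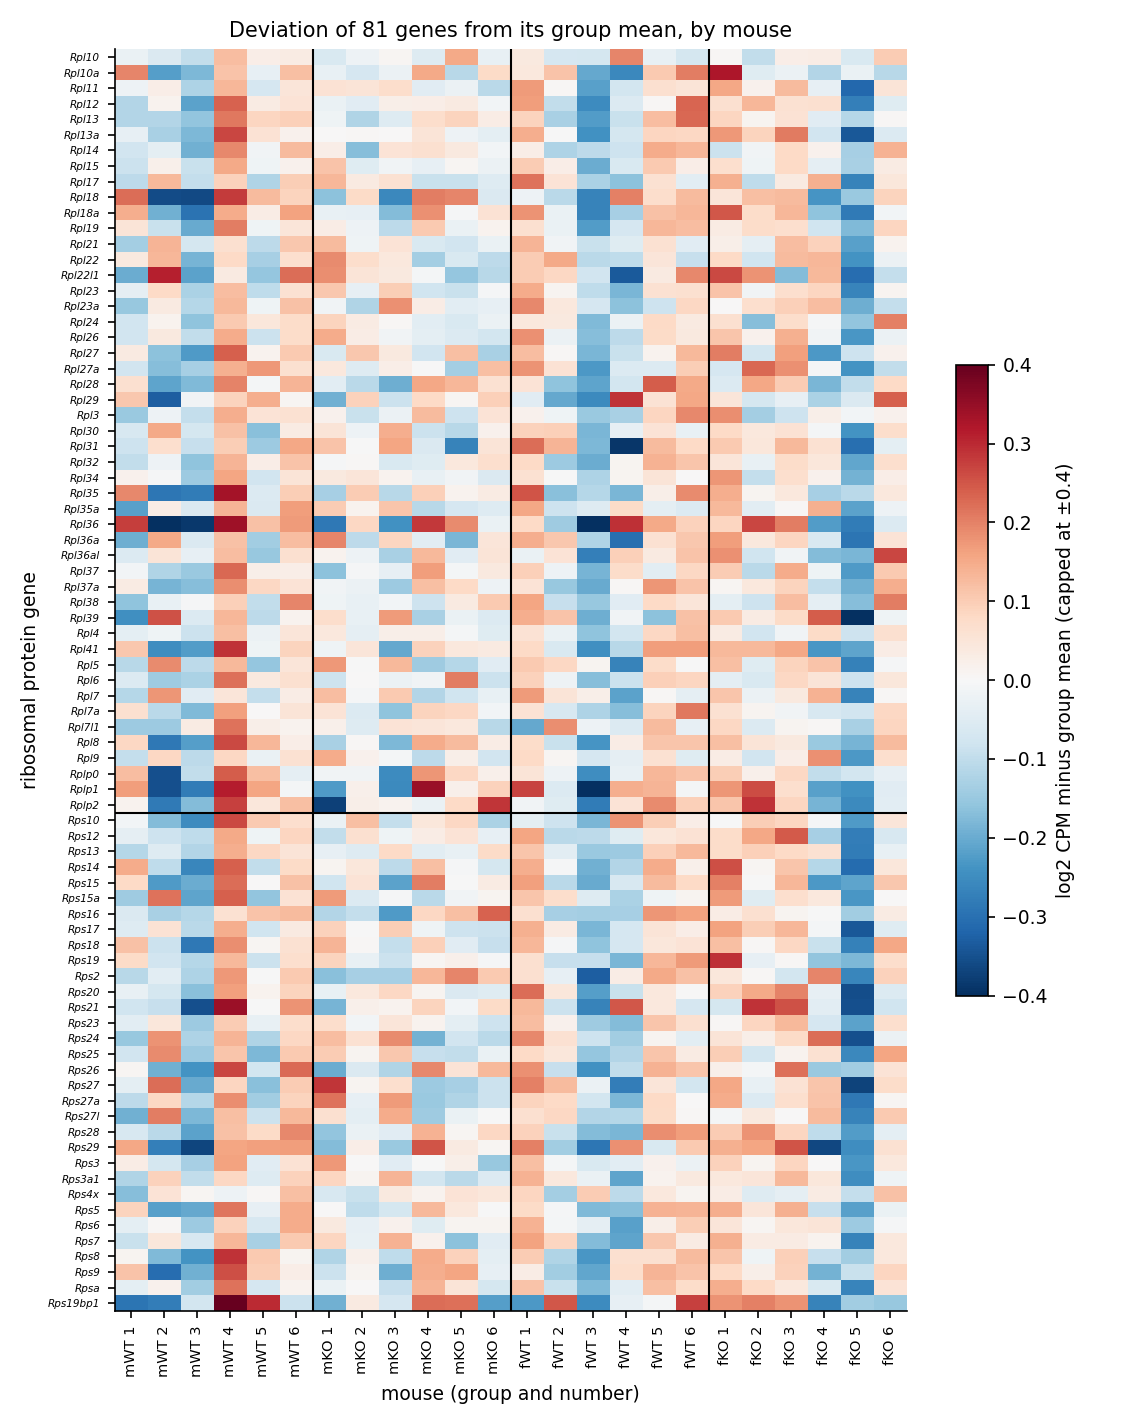
Log2 CPM of 81 of the 82 genes (rows, large subunit above the line, small subunit and Rps19bp1 below) minus the mean of the mouse's own group, for the 24 mice (columns), with colours capped at ±0.4. Nearly whole columns share a sign in mWT 3, mWT 4, fWT 3 and fKO 5, whereas the mKO columns are pale.

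Some genes followed the others less. The median correlation with the other ribosomal protein genes was lowest for Rps4x (0.165) and Rpl10 (0.225), both X-linked and both among the genes with the smallest within-group SD (0.0848 and 0.0844 on the log2 scale). Rps4x, a small subunit protein, had 234 CPM ± 15.3 (SD, n = 6) in mWT, 224 ± 9.30 in mKO, 237 ± 16.2 in fWT and 235 ± 12.5 in fKO. Rpl10, which joins the large subunit late in its maturation, had 239 ± 13.3 CPM, 227 ± 12.8 CPM, 249 ± 18.8 CPM and 242 ± 11.9 CPM in the same order. The other X-linked genes, Rpl39 at the exit tunnel and Rpl36a, lay at 42.5 to 44.5 CPM and at 73.3 to 75.2 CPM as group means. Their median correlations with the other ribosomal protein genes were higher, at 0.380 and 0.502. None of the 4 X-linked genes passed the test between the sexes, and the smallest adjusted p among them was 0.321 (Rpl10, mKO vs. fKO, edgeR's quasi-likelihood F-test, adjusted over all genes by Benjamini-Hochberg). The most variable genes were Rpl36 (SD 0.277 on the log2 scale), Rplp1 (0.241), Rps19bp1 (0.235) and Rps29 (0.215).

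The question whether loss of the Mup cluster changes gene expression was asked within each sex. In males, 0 of the 82 ribosomal protein genes passed the study's cut-off of unadjusted p below 0.01 for mKO vs. mWT in edgeR's quasi-likelihood test, while 3.52% of all genes tested did (434 genes). In females, 0 of 82 passed for fKO vs. fWT, against 0.876% of all genes (108 genes). At unadjusted p below 0.05 the counts were 1 of 82 in males (10.6% of all genes) and 3 of 82 in females (4.87%). The female count depended on single mice and on the scaling. It was 19 of 82 without fWT 3 (5.4% of all genes), 10 without fKO 1 (6.04%), 9 without fWT 4 (4.53%) or fKO 3 (4.63%), and 1 without fWT 1, 5 or 6 or fKO 4. With library totals without TMM it was 31 of 82 (6.29% of all genes). DESeq2 gave 0 of 82 below 0.01 in either sex. In the fit with TMM scaling, the 95% confidence interval of the fold change stayed within 1.5-fold in either direction for all 82 genes in both sexes. These intervals were taken gene by gene and do not hold jointly for the 82.

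The small differences pointed in different directions in the sexes. In males 59 of 82 genes had a higher mean in mKO, with a median log2 fold change of 0.04, whereas 49.4% of all genes were higher and their median was -0.00. In females 74 of 82 were lower in fKO, with a median of -0.08, whereas 50.9% of all genes were lower. As the genes deviated together within mice, the 82 are not independent, and these counts carry no test. Leaving out fKO 5, in which all 82 were low, left 57 of 82 lower and a median of -0.04. Leaving out mWT 3 left 43 of 82 higher in males, with a median of 0.01, and leaving out mWT 4 left 68 of 82 higher, with a median of 0.07. The male median was 0.02 without mWT 1 and with library totals in place of TMM scaling. When library totals were used without TMM scaling, 80 of 82 were lower in fKO with a median of -0.13, and the median of all genes moved to -0.05. In that setting 4 of the 82 passed p below 0.01 in females, against 1.18% of all genes.

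**Figure D4:**
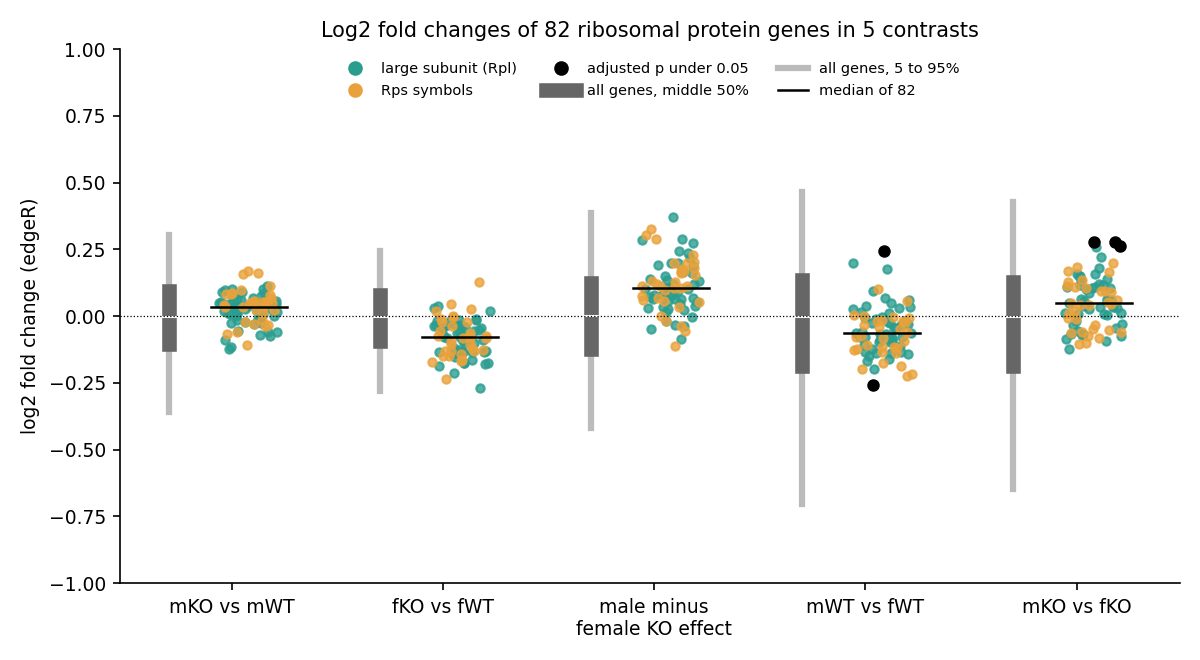
Log2 fold changes of the 82 genes (points) in 5 contrasts, with the median of the 82 as a line and the spread of all 12330 genes as grey bars to the left (thick bars, middle 50%; thin bars, 5 to 95%). The points sit within a narrow band, with medians of 0.04 (mKO vs. mWT) and -0.08 (fKO vs. fWT), and the black points mark the 2 and 3 genes with adjusted p below 0.05 between the sexes.

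The gene with the smallest p in males was Rps27l, a paralog of Rps27 that is induced by p53 in many cells. Its CPM ranged from 97.6 to 128 (median 113) in mWT and from 113 to 139 (median 124) in mKO. The ranges overlapped, and the log2 fold change was 0.16 ± 0.08 (SE), with an adjusted p of 0.456 in edgeR's test. Next came Rpl3, whose protein reaches into the peptidyl transferase centre, at -0.12 ± 0.07 (adjusted p = 0.589, edgeR). Rps21, Rpl34 and Rpl37a followed with log2 fold changes of 0.17, 0.09 and 0.11.

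In females the smallest p belonged to Rps15, a protein of the head of the small subunit. It ranged from 86.4 to 111 CPM in fWT and from 71.7 to 96.9 CPM in fKO. The groups overlapped, and the log2 fold change was -0.23 ± 0.09 (adjusted p = 0.929, edgeR). Rpl37a, a zinc-binding protein of the large subunit, had 62.6 to 81.2 CPM in fWT and 55.9 to 70.7 CPM in fKO, with a log2 fold change of -0.17 ± 0.08. Rplp1, which with Rplp0 and Rplp2 forms the stalk that engages translation factors, differed by -0.27 ± 0.13. Its stalk partners differed by -0.13 ± 0.09 (Rplp0) and -0.18 ± 0.11 (Rplp2), and none of the 3 passed in either sex. Rpsa, the small subunit protein also known as the laminin receptor precursor, had 183 CPM ± 15.3 in fWT and 168 ± 16.1 in fKO, and 173 ± 15 in mWT and 170 ± 10.1 in mKO. Rpl19 and Rps9 completed the 5 smallest p-values, with log2 fold changes of -0.14 and -0.17.

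Marker lists of liver cell types were read for the knockout effect too. All 8 markers of Kupffer cells and macrophages were tested. Their median log2 fold change was -0.30, all 8 means were lower in fKO, and 0 of 8 reached p below 0.05. Their summed level was 150 to 271 CPM in fWT and 127 to 221 CPM in fKO. In males 6 of 8 were higher in mKO, with 80.9 to 167 CPM in mWT and 80.7 to 218 CPM in mKO. Red cell genes (the globins and Alas2) were higher in mKO for 4 of 5, with a median of 0.43, and lower in fKO for 4 of 5, with a median of -0.22. They summed to 149 to 214 CPM in mWT, 155 to 260 in mKO, 40.5 to 67.8 in fWT and 41.2 to 60.5 in fKO. All genes on the macrophage and red cell lists passed the filter. Hepatocyte markers were higher in KO for 5 of 8 in each sex, with medians of 0.08 in males and 0.05 in females. Endothelial markers were higher for 4 of 7 in mKO and lower for 6 of 7 in fKO (medians 0.01 and -0.04). Stellate markers were lower for 4 of 7 in mKO and 5 of 7 in fKO (medians -0.14 and -0.02). Of the tested lymphocyte markers 3 of 5 were higher in each sex, and of the cholangiocyte markers 2 of 3. The part of any of these cells in the ribosomal protein differences was not tested. In bulk liver, fewer cells of a type and less RNA per cell cannot be told apart.

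The difference between the sexes in the knockout effect was tested directly. For the male minus the female effect, 72 of 82 genes had a positive value, with a median of 0.11 on the log2 scale, compared with 50% of all genes and a median of 0.00. At unadjusted p below 0.01, 0 of 82 passed (1.16% of all genes) and at p below 0.05, 4 of 82 (5.96% of all genes), namely Rpl37a, Rps15, Rpl37 and Rpl41. Rpl41, with 25 residues the shortest protein of the set, had a difference of 0.27 ± 0.13, and Rpl37a had the smallest p with 0.29 ± 0.11 (adjusted p = 0.816, edgeR). The count at p below 0.05 was 16 without mWT 4 (5.99% of all genes), 13 without fWT 3 (6.85%), 12 without fKO 1 (5.55%), 12 without TMM (6.15%) and 1 without fKO 5 (5.04%). Without fKO 5 the median difference was 0.06, with 64 of 82 positive. Averaged over both sexes, 24 of 82 were higher and 58 lower in KO with a median of -0.03 (51.1% of all genes were lower), and 0 of 82 passed p below 0.01 (2.83% of all genes). That median was -0.01 without fKO 5, -0.05 without fWT 3 and -0.06 without TMM. Rps27l again had the smallest p, at 0.14 ± 0.05 (adjusted p = 0.375, edgeR), followed by Rpl3, Rps9, Rpl10a and Rpl7a at -0.10, -0.12, -0.11 and -0.08.

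Far more genes differed between the sexes than between the genotypes, but few of them encoded ribosomal proteins. In WT, 2 of 82 passed an adjusted p below 0.05 for mWT vs. fWT in edgeR's test, while 17.3% of all genes did. In KO, 3 of 82 passed for mKO vs. fKO, against 14.4% of all genes. The 82 had lower log2 variation than all genes, as given above. In WT 66 of 82 were lower in males, with a median of -0.06, whereas 50.4% of all genes were lower. In KO 58 of 82 were higher in males, with a median of 0.05, whereas 49% of all genes were higher. Without fKO 5, 45 of 82 were higher in males in KO, with a median of 0.01. In WT the median was -0.03 without mWT 3 and -0.10 without mWT 4, without fWT 3 or without TMM. These medians use the same groups as the knockout effects and so are not independent of them. The macrophage markers were lower in males in both genotypes (8 of 8, median log2 fold change -0.76 in WT and -0.36 in KO). Of them, 6 of 8 were at adjusted p below 0.05 in WT and 0 of 8 in KO. The endothelial markers were also lower in males in both genotypes (7 of 7, medians -0.28 and -0.19), with 3 and 1 at adjusted p below 0.05. Stellate markers were lower in males for 6 of 7 in WT and 7 of 7 in KO (medians -0.26 and -0.32). Of the tested lymphocyte markers 4 of 5 were lower in both genotypes, and of the tested cholangiocyte markers 2 of 3. The red cell genes were higher in males in both (5 of 5, medians 0.44 in WT and 1.14 in KO), with 1 of 5 at adjusted p below 0.05 in WT and 5 of 5 in KO. Of the hepatocyte markers, 5 of 8 were higher in males in both genotypes (medians 0.07 in WT and 0.04 in KO). At adjusted p below 0.05, 1 of 8 was lower in males in WT and 1 of 8 higher in KO. The part of each list in the sex differences of the ribosomal protein genes was not tested.

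Rps27l was higher in males of both genotypes. In WT its levels were 97.6, 128, 98.4, 121, 105 and 122 CPM in mice 1 to 6 of mWT and 98.9, 100.2, 87.3, 87.5, 99.7 and 95 CPM in fWT. Here mWT 1 and mWT 3 lay among the fWT mice, and the other mWT mice lay above all of them. The log2 fold change was 0.24 ± 0.08 (adjusted p = 0.0284, edgeR). In KO the levels were 131, 122, 139, 113, 123 and 125 CPM in mKO and 103, 106, 103, 113, 85.8 and 111 CPM in fKO. The lowest mKO mouse (113.3 CPM) was above the highest fKO mouse (112.7 CPM), so the groups did not overlap, which held in this direction for 1 of the 82 genes and 3.84% of all genes. The log2 fold change was 0.28 ± 0.08 (adjusted p = 0.014, edgeR). The WT call was lost without mWT 2, 4 or 6 or fWT 3 or 4, with adjusted p between 0.0639 and 0.0756, and when library totals were used without TMM (0.0557) or the WT mice were fitted alone (0.051). The KO call held without any one mouse, with adjusted p of at most 0.0483.

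Rps27 itself, whose protein is the small subunit's zinc-finger protein eS27, had 139 CPM ± 15.9 (SD, n = 6) in mWT, 147 ± 17.4 in mKO, 162 ± 18.3 in fWT and 158 ± 19.2 in fKO. It leaned the other way, at -0.22 ± 0.10 in WT (adjusted p = 0.11) and -0.10 ± 0.10 in KO (adjusted p = 0.516, both edgeR). Over their coding sequences of 252 bases each, Rps27 and Rps27l were identical at 76.2% of positions and shared no stretch of 100 bases, so reads of one could not match the other in full. Rps27 shared 98.4% of its stretches with other genes and Rps27l 0%. As the counting of such reads is not known, the level of their ratio is uncertain. The ratio of Rps27l to Rps27, chosen after their values were seen, was 0.808 ± 0.0437 in mWT, 0.859 ± 0.0710 in mKO, 0.589 ± 0.0462 in fWT and 0.659 ± 0.0428 in fKO. All mWT mice (0.727 to 0.854) lay above all fWT mice (0.534 to 0.658), and all mKO mice (0.734 to 0.922) above all fKO mice (0.589 to 0.707). The log2 ratio was 0.46 higher in males in WT and 0.38 higher in KO, each with p = 0.00216 in the two-sided exact permutation test, the smallest that 6 against 6 mice allow, and an adjusted p of 0.0173 over the 16 ratio tests (exact permutation). Without any one mouse the difference was 0.43 to 0.49 in WT and 0.35 to 0.42 in KO. As the groups did not overlap, leaving out a mouse could not undo their separation. Between genotypes the ratio differed by 0.09 in males (exact permutation p = 0.188) and by 0.16 in females (exact permutation p = 0.026, adjusted p = 0.0866).

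**Figure D5:**
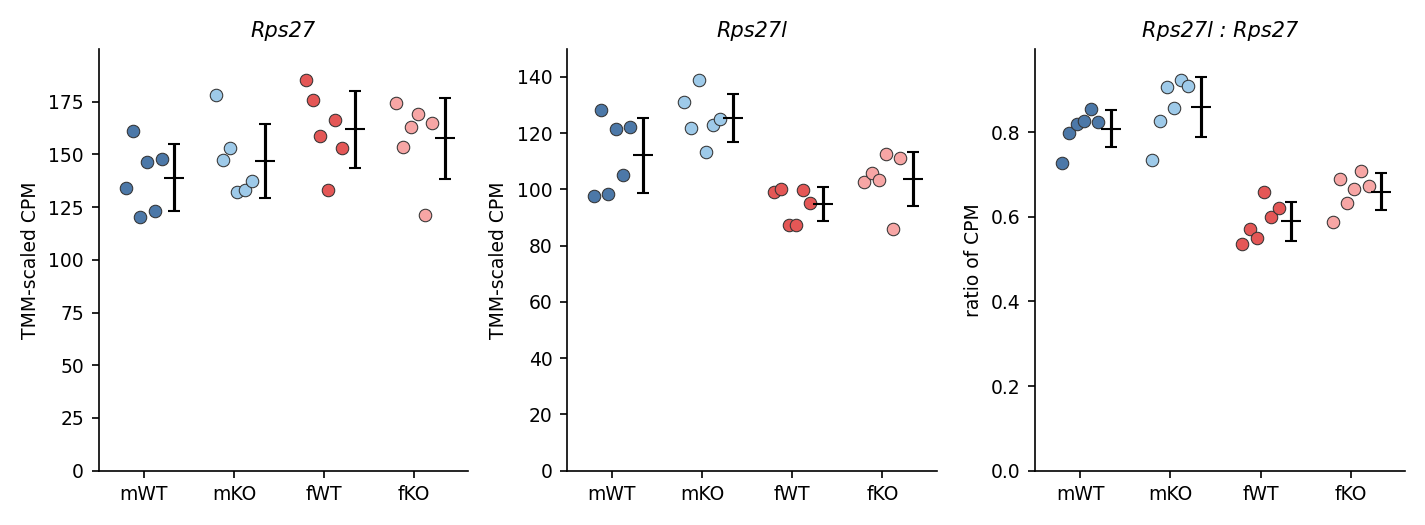
TMM-scaled CPM of Rps27 (left) and Rps27l (middle) and their ratio (right) in each mouse, where points are mice, horizontal marks are group means and error bars are SD (n = 6), and the vertical axes start at 0. The ratio separates the sexes, with males from 0.727 to 0.922 and females from 0.534 to 0.707, whereas each gene alone overlaps between mWT and fWT.

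Rpl36al, the autosomal counterpart of the X-linked Rpl36a, was higher in males in KO. Its levels were 45.8, 44.7, 41.4, 49.6, 43.9 and 47.0 CPM in mKO and 42.3, 35.2, 36.9, 33.0, 32.8 and 44.8 CPM in fKO. Here fKO 1 and fKO 6 lay among the mKO mice, and the other fKO mice lay below all of them. The log2 fold change was 0.28 ± 0.08 (adjusted p = 0.0178, edgeR), and the call was lost without fKO 4 or fKO 5 (0.0515 and 0.0553). In WT the log2 fold change was 0.20 ± 0.08 with adjusted p = 0.084 (edgeR). Rpl36a differed by 0.01 ± 0.09 in WT and 0.04 ± 0.09 in KO between the sexes. The coding sequences, 318 bases each, were identical at 87.7% of positions. The ratio of Rpl36al to Rpl36a was 0.592 ± 0.0343 in mWT, 0.608 ± 0.0682 in mKO, 0.524 ± 0.0820 in fWT and 0.513 ± 0.0503 in fKO, and the sex difference of its log2 value had an adjusted p of 0.147 in WT and 0.0866 in KO (exact permutation).

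The remaining sex calls were one gene in each genotype. Rps28, a small subunit protein near the mRNA exit, was lower in mWT (23.9, 23.2, 21.6, 27.1, 26.4 and 28.6 CPM) than in fWT (31.9, 28.1, 26.5, 26.3, 34.0 and 33.6 CPM). The groups overlapped through mWT 4, 5 and 6 and fWT 2, 3 and 4. The log2 fold change was -0.26 ± 0.08 (adjusted p = 0.0362, edgeR), and in KO it was -0.10 ± 0.08 (adjusted p = 0.462). Rpl27, a large subunit protein, was higher in mKO (24.7, 27.8, 26.5, 24.5, 28.0 and 23.6 CPM) than in fKO (24.8, 20.4, 24, 18.3, 20.2 and 21.7 CPM). Here fKO 1 and fKO 3 lay among the mKO mice. The log2 fold change was 0.26 ± 0.08 (adjusted p = 0.0344, edgeR), and in WT it was 0.07 ± 0.08 (adjusted p = 0.624). The Rps28 call was lost without any one of 6 of the 12 WT mice and the Rpl27 call without any one of 7 of the 12 KO mice, with adjusted p of at most 0.0964 and 0.0919. The Rps28 call was also lost without the filter on low counts (0.0528) and with the WT mice fitted alone (0.0631). Whether the sex difference itself differed between genotypes is the same contrast as the difference of the knockout effects, in which Rps28 had an adjusted p of 0.898 and Rpl27 one of 0.88 (edgeR).

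The other pairs of paralogs showed no call. Rpl22l1, which can take the place of the RNA-binding protein Rpl22, was at 0.252 to 0.285 of the Rpl22 level in males and 0.238 to 0.240 in females as group means. Rpl7l1, a nucleolar relative of Rpl7, was at 0.210 to 0.221 in males and 0.188 to 0.194 in females. The adjusted p of the 8 tests on these ratios was 0.0866 or above (exact permutation).

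Genes tied to the ribosome were read beside the 82. Fau, which encodes a ribosomal protein of the small subunit fused to a ubiquitin-like protein, differed by 0.05 in males and -0.21 in females, and Rack1, a scaffold protein on the small subunit, by -0.01 and -0.11, and neither passed p below 0.01 in either sex. Among 17 translation factors with TOP mRNAs, such as Eef2 and Pabpc1, 0 passed in either sex, and their medians were 0.00 in males and -0.01 in females. Of 38 ribosome biogenesis factors, 0 passed in either sex, with medians of -0.05 and -0.03. In WT, 1 of the 38 was higher and 2 were lower in males at adjusted p below 0.05, against 17.3% of all genes. Among these was Ubtf, the RNA polymerase I transcription factor, at -0.29 ± 0.06 (adjusted p = 0.00285, edgeR). In KO, 1 of the 38 was higher and 1 lower in males, against 14.4% of all genes. The higher one was Nop10, a subunit of the pseudouridylation complex, at 0.38 ± 0.07 (adjusted p = 0.000616, edgeR). Of 24 genes of growth signalling and TOP mRNA control, 0 passed between genotypes in either sex. Between the sexes, 3 of 24 were higher and 0 lower in males at adjusted p below 0.05 in WT (17.3% of all genes). In KO, 1 was higher and 1 lower (14.4% of all genes). Deptor, an inhibitor of mTOR, had the smallest p in WT and was higher in mWT than in fWT by 0.42 ± 0.08 (adjusted p = 0.000378, edgeR). The mitochondrial ribosome, which translates the mitochondrial genome, had 0 of 78 genes at p below 0.01 in either sex for KO vs. WT. Between the sexes 2 of 78 passed adjusted p below 0.05 in WT (17.3% of all genes) and 11 of 78 in KO (14.4% of all genes), of which 10 were higher in males. The KO share was thus near that of all genes. Mrpl38 was the first of these, at 0.32 ± 0.07 (adjusted p = 0.00103, edgeR).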

How the data were processed

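Per the labels and the study's methods, the authors sequenced TruSeq Stranded mRNA libraries as single-end reads of 100 bases. Reads were demultiplexed with bcl2fastq 2.19, trimmed with fastp 0.20, aligned to GRCm38.p6 with STAR 2.7a and counted with featureCounts. The deposited values are raw counts per gene. The annotation release, strand setting and treatment of multi-mapping reads are not given in the sources used here. Of 25746 listed genes, 25712 were matched to GENCODE M21 on the same build.

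Counts were scaled by TMM and tested in edgeR 4.0.16 (R 4.3.3) with the quasi-likelihood test (robust dispersions, one model of the 4 groups), restricted to genes that reached 0.66 CPM in 6 or more of 24 libraries, and adjusted by Benjamini-Hochberg over 12330 genes. The script was tested on simulated data. Paralog ratios were compared with exact permutation tests in scipy 1.17.1. Named were, in each contrast, members with adjusted p below 0.05 (up to 15) or otherwise the 5 with the smallest p, the 5 highest and 5 lowest per kb, paralog pairs, X-linked members, the stalk genes and Rpsa. Members and lists were chosen with earlier results of these data known. Mouse numbers did not pair KO and WT mice. Alternatives were DESeq2 1.42.0, other scalings, filters and dispersions, and leaving out each mouse. Values of 1 member and of 1 other gene on the lists are not reported here.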

Additional observations from a re-analysis of the deposited data

Results flagged for a closer look

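Among 168 sets of 6 mice (36 named genes, the summed level, the subunit ratio and the 4 paralog ratios, in each group), 6 held a mouse that stood far from the others, and chance flags about 1 in 20 such sets. The summed level of fKO 5 was 7078 CPM, while the next lowest fKO mouse had 8207 CPM, and the Rps27l level of fKO 5 was 85.8 CPM with 103 CPM in the next. In fKO 1, Rpl10a had 40.9 CPM, and the next highest fKO mouse had 32.1 CPM. In mKO 5, Rpl10 had 252 CPM against 228 CPM in the next. In fWT 3, Rpl34 had 64.0 CPM against 69.6 CPM. In fWT 4, the ratio of Rpl36al to Rpl36a was 0.684 against 0.522.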

How the results depend on the processing

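No median fold change of the 82 genes reversed its direction under the alternatives run, whereas the male difference of summed levels changed sign without mWT 3. Single genes were followed only where they were named for their p in a contrast, and none of these reversed. The other named genes were not followed. The count of ribosomal protein genes past p below 0.01 was 0 in males under all alternatives. In females it was 4 with library totals without TMM, 1 with mouse number as a replicate block (the pairing is not supported: the same-number correlations were -0.335 to 0.169) and 0 to 2 when single mice were left out (2 without fWT 3). For the difference between sexes it was 1 without TMM and 0 to 1 without single mice, and over both sexes 1 with DESeq2, 1 without TMM and 0 to 1 without single mice. The count at adjusted p below 0.05 in WT (2) was 1 with no filter, 0 with each pair of groups fitted alone, 3 without TMM and 0 to 3 without single mice (0 without mWT 2). In KO (3) it was 1 to 3, with 1 without fKO 4 or fKO 5. The ratio of Rps27l to Rps27 without single mice ranged from 0.056 to 0.13 in males and 0.14 to 0.20 in females between genotypes (log2). Between sexes it ranged from 0.43 to 0.49 in WT and 0.35 to 0.42 in KO. The difference of summed levels without single mice ranged from -75.4 to 257 CPM in males and -607 to -221 CPM in females, and without TMM it was 11.7 and -726 CPM. The widest 95% interval of a log2 fold change among the 82 genes reached 0.40 from 0 in males and 0.53 in females.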
